A study of Mus musculus with 2 samples.

Results

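Chemokines, interleukins and their receptors are the genes by which cells of the uterus and immune cells signal to each other. They were taken as the protein-coding genes on chromosomes 1 to 19 of a RefSeq mouse gene table (GRCm38.p6) whose symbols begin with Ccl, Cxcl, Ccr, Cxcr or Il and a number, without Il6st. The rule gave 130 of 20665 genes, of which 76 encode ligands, 51 encode receptor chains, and 3 (Il18bp, Il4i1 and Il4i1b) encode a binding protein or amino acid oxidases. The tissue was whole uterus, taken from wild-type mice at day 4 of gestation. The series held 2 libraries of polyA RNA, 1 ac4C immunoprecipitation and 1 input control, with no replicate of either, so no value below has a replicate check and no p-value was calculated. The libraries were available as 1 list of 21192 peaks made by the authors.

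N4-acetylcytidine (ac4C) is an acetyl group on cytidine of RNA, and acRIP-seq pulls down RNA fragments that carry it with an antibody. Chemokines are small secreted proteins that bind receptors of the G protein-coupled class and direct the migration of leukocytes. Interleukins bind receptors built of several chains. Most of these signal through JAK kinases and STAT factors, whereas the IL-1 and IL-17 receptors signal through adaptor proteins to NF-κB. In the uterus, such signals are known for their part in the recruitment of leukocytes and in the response of the endometrium to the embryo.

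A peak was counted for a gene when its summit, the position of the greatest signal, lay in the gene span with introns included. A summit was found in 20 of the 130 genes (15.4%, 95% Wilson interval 10.2 to 22.6%), against 31.7% of all protein-coding genes on these chromosomes. The 20 genes held 45 peaks. A single peak was found in 7 genes, 2 peaks in 7 genes, and 3 or more in 6 genes. No peak in a gene is not evidence of unmodified RNA, since transcript levels were not analysed here and a transcript of low abundance gives few fragments. When peaks were limited to a −log10 q of 10 or more, the count was 13 of the 130 genes, against 18.3% of all protein-coding genes.

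Peaks were found in 11 of 51 receptor genes (21.6%, 12.5 to 34.6%) and in 8 of 76 ligand genes (10.5%, 5.43 to 19.4%). The difference was 11.0 percentage points with a 95% Newcombe interval of -1.66 to 25.1, so the shares of receptors and ligands were not told apart by counting error. When the copies of Ccl21 were counted as 1 gene, an alternative chosen after seeing the data, the difference was 13.3 percentage points (0.864 to 27.1). All 11 receptor genes with a peak were interleukin receptors, of which 11 of 35 held one (31.4%, 18.6 to 48.0%), a share close to that of all protein-coding genes. The 16 chemokine receptors held 0 peaks, with an upper bound of 19.4%. On the ligand side 6 of 37 chemokines (16.2%, 7.65 to 31.1%) and 2 of 39 interleukins (5.13%, 1.42 to 16.9%) held a peak.

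**Figure D1:**
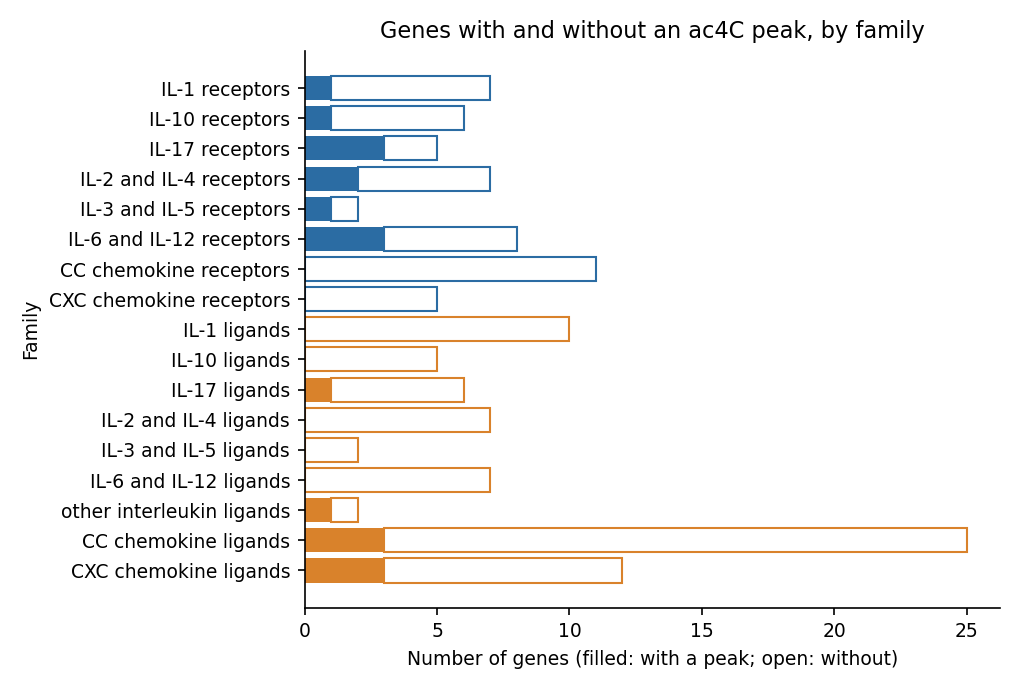
Number of genes in each ligand (orange) and receptor (blue) family, with filled bars for genes with an ac4C peak and open bars for genes without. The 11 CC and 5 CXC chemokine receptors have no filled part, and 3 of 5 IL-17 receptors are filled.

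Ligand genes are shorter than receptor genes, with a median span of 5.29 kb against 17.7 kb, and long spans can hold more summits. Of all protein-coding genes, 16.8% held a peak at spans under 5 kb, 30.7% at 5 to 20 kb and 39.6% at 20 kb or more. Among members under 5 kb, 2 of 34 ligands and 0 of 4 receptors held a peak. At 5 to 20 kb the counts were 4 of 33 ligands (12.1%) and 6 of 23 receptors (26.1%). At 20 kb or more they were 2 of 9 ligands (22.2%) and 5 of 24 receptors (20.8%). The excess of receptors was thus 14.0 percentage points in the middle class (-6.39 to 35.6) and turned to -5.88 and -1.39 in the short and long classes, each with an interval across 0. The ligands with a peak under 5 kb were Ccl21a and Ccl21d. At 20 kb or more they were Il16 and Ccl21b, whose listed span is 83.7 kb. Copies of Ccl21, whose values are uncertain as measurements of single genes, are thus among the ligands with a peak in both of these classes. Their part in the negative differences was not tested. With peaks limited to a −log10 q of 10 or more, the middle class lost the receptors Il11ra1, Il17rb and Il17re. It also lost the ligands Cxcl14, Cxcl16 and Il17d. Interleukin receptors held a peak in 6 of 12 genes at 5 to 20 kb (50%, 25.4 to 74.6%). At 20 kb or more, 5 of 23 held one (21.7%, 9.66 to 41.9%). Each interval took in the share of all protein-coding genes of its class, 30.7% and 39.6%, so neither share was told apart from it. Chemokine receptors held a peak in 0 of 4 genes under 5 kb, 0 of 11 at 5 to 20 kb and 0 of 1 at 20 kb or more. Transcript abundance was not matched in any of these comparisons, and its part in them was not tested.

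**Figure D2:**
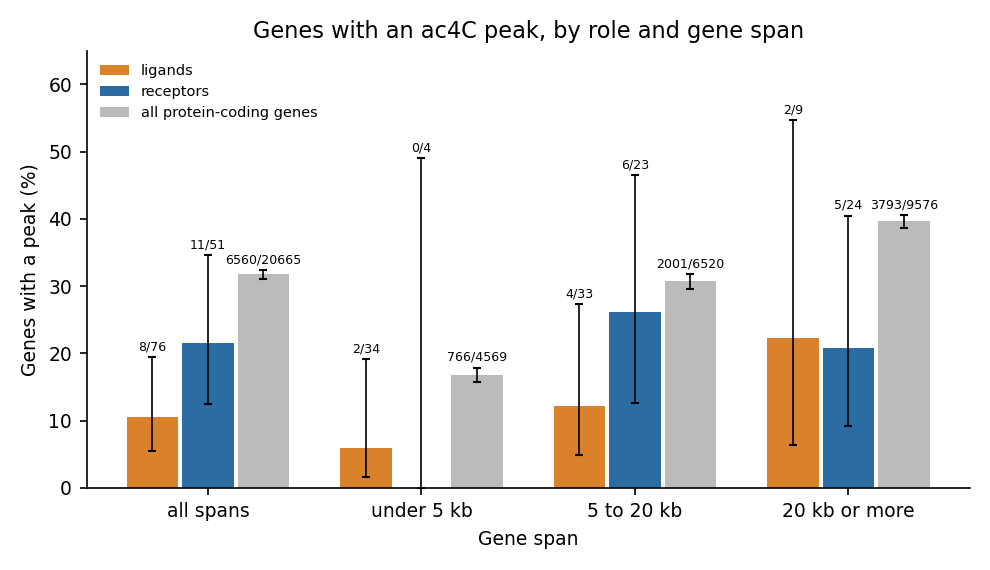
Percentage of genes with an ac4C peak for ligands, receptors and all protein-coding genes, over all spans and in 3 classes of gene span; lines are 95% Wilson intervals and the numbers above them are genes with a peak over genes in the class. Receptors lie above ligands over all spans and at 5 to 20 kb, where the intervals overlap, and not in the other classes.

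The strength of each peak is given as fold enrichment, as deposited by the authors. It was read as the signal at the summit divided by the background, with a pseudocount of 1 added to each. It is therefore not the plain ratio of the fragments and backgrounds given below. The intervals below are 95% intervals from the number of immunoprecipitated fragments at the summit, a number solved for from the deposited values. They cover the counting error of these fragments only. The background was taken as exact, so intervals that do not overlap leave its error out. The highest peaks of the 20 genes ranged from 2.59 to 20.3 with a median of 6.92, against 6.62 over all 6560 protein-coding genes with a peak. The 45 peaks rested on 6 to 53 fragments with a median of 18, against a median of 22 for the whole list. The median background was 1.20 fragments for the 26 receptor peaks and 3.76 for the 17 ligand peaks.

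**Figure D3:**
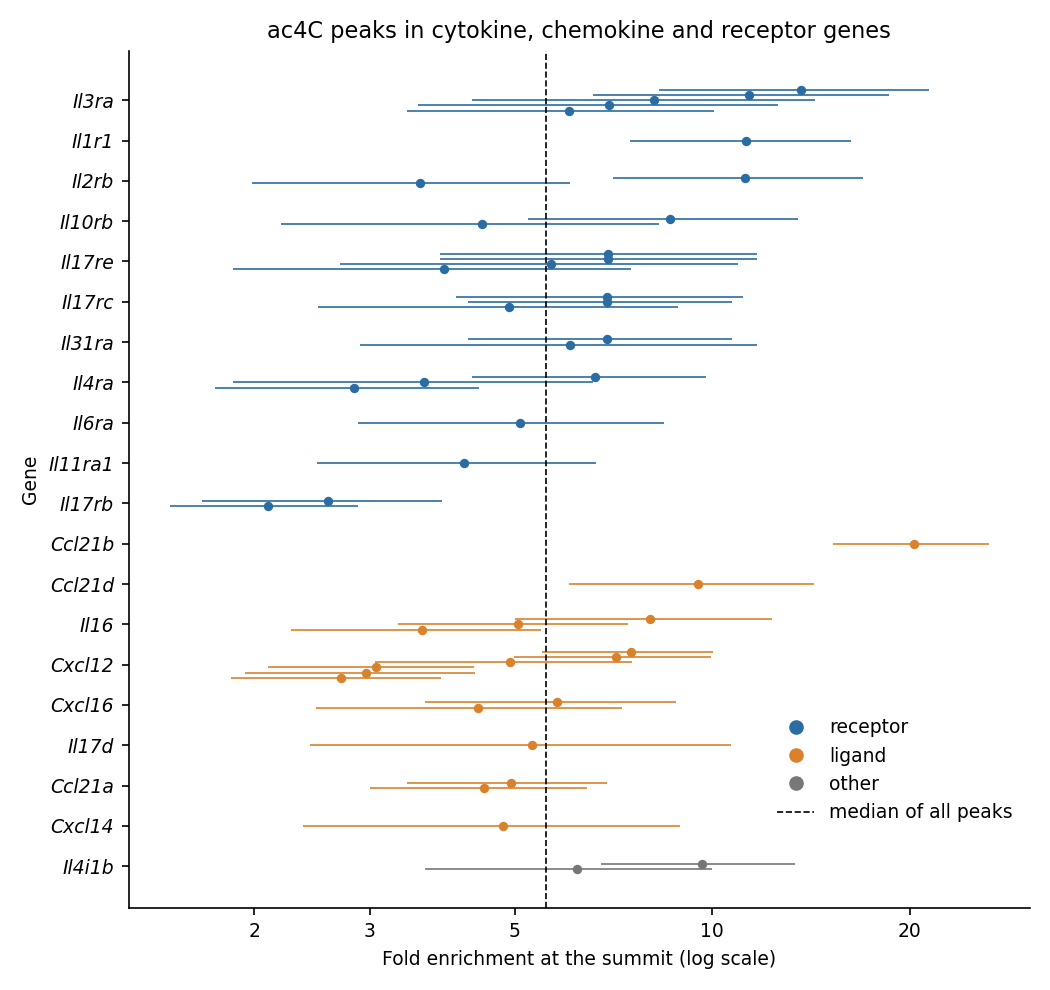
Fold enrichment at the summit (log axis) of each of the 45 peaks by gene, with 95% counting intervals; receptors are blue, ligands orange, the other gene grey, and the dashed line is the median of all peaks, 5.58. Ccl21b stands highest at 20.3 and both peaks of Il17rb lie lowest, at 2.10 and 2.59.

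The receptor with the greatest enrichment was Il3ra (NCBI gene 16188), the ligand-binding chain for IL-3. It held 5 peaks over a span of 9.58 kb on chromosome 14, from 14345912 to 14355493. From the 5′ to the 3′ end their fold enrichments were 6.05, 11.4, 13.7, 6.96 and 8.15, so every peak lay above the median of all peaks. The highest, from 14349817 to 14350363, had an interval of 8.28 to 21.4, which overlapped those of the highest peaks of 8 other receptor genes. It rested on 17 fragments over a background of 0.317 fragments, the lowest in the list, and the 5 intervals overlapped each other. The other chain of this kind, Il5ra for IL-5, held no peak. The genes of their ligands, Il3 and Il5, held none either.

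Il1r1 (NCBI gene 16177), the signalling receptor for IL-1α and IL-1β, held 1 peak at 11.2-fold (7.49 to 16.3) on 26 fragments, from 40282990 to 40283495 on chromosome 1. The summit lay 32.9 kb before the 3′ end of a gene of 93.7 kb. The other 6 receptor genes of the IL-1 family held no peak. Among these are the decoy receptor Il1r2, the accessory chain Il1rap and Il1rl1, which binds IL-33. None of the 10 ligand genes of the family held a peak, among them Il1a, Il1b, Il18, Il33 and the antagonist Il1rn.

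Of the 7 receptor genes of the IL-2 and IL-4 families, Il2rb and Il4ra held peaks, and Il2ra, Il7r, Il9r, Il15ra and Il21r held none. Il2rb (NCBI gene 16185), a chain for IL-2 and IL-15 known from natural killer and T cells, held 2 peaks on chromosome 15. The stronger, from 78481768 to 78482282, stood at 11.2-fold (7.05 to 17.0) on 20 fragments. The weaker, from 78481428 to 78481627, stood at 3.58-fold (1.99 to 6.06) on 12 fragments over a higher background, and the intervals of these neighbours did not overlap. Il4ra (NCBI gene 16190), the chain for IL-4 and IL-13, held 3 peaks with summits in the last 2.69 kb of its span on chromosome 7, at 6.62, 2.84 and 3.64-fold in the 5′ to 3′ direction. The strongest of these, from 125576192 to 125577011, rested on 23 fragments (4.30 to 9.79). The 7 ligand genes of these families, Il2, Il4, Il7, Il9, Il13, Il15 and Il21, held no peak.

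The IL-17 receptors were the receptor family with peaks in the most members for its size, 3 of 5 genes (60%, 23.1 to 88.2%). That interval overlapped those of the other receptor families and took in the 31.7% of all protein-coding genes. With peaks limited to a −log10 q of 10 or more, Il17re and Il17rb held none. Il17re (NCBI gene 57890), the receptor for IL-17C in epithelia, and Il17rc (NCBI gene 171095), a receptor chain for IL-17A and IL-17F, are neighbours on chromosome 6, with 696 bp between their spans. Together they held 7 peaks in 24.5 kb. The peaks of Il17re stood at 5.67, 6.93, 6.93 and 3.90-fold from the 5′ to the 3′ end, on 7, 12, 12 and 7 fragments. Those of Il17rc stood at 4.90, 6.91 and 6.92-fold, on 9, 18 and 15 fragments. All 7 intervals overlapped, so no peak of this pair was told apart from the rest. Il17rb (NCBI gene 50905), which binds IL-17B and IL-25, held 2 peaks at 2.10-fold (1.49 to 2.88) and 2.59-fold (1.67 to 3.86). They rested on 36 and 22 fragments, more than any peak of Il17re or Il17rc, over backgrounds of 16.6 and 7.88 fragments. The 36 and 22 fragments of Il17rb lie at or above the median of 22 for the whole list. The fold enrichments of these peaks lie at percentiles 0.293 and 1.96 of that list. Il17ra, the chain shared in this family, and Il17rd held no peak.

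Il17re is the receptor gene whose peak came closest to a listed start of transcription. Its first peak, from 113458818 to 113459017, began 47 bases after the start site of the RefSeq promoter entry and took in the last 3 bases of that entry. The last 30 bases of the entry, on the plus strand of GRCm38.p6, are shown because they lead into the peak, with the bases inside it in capitals.
Il17re, chr6:113458791-113458820: cgcctgctggtactgtgtgcttctcacAGC

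The remaining receptor peaks lay in chains for IL-6, IL-11, IL-31 and IL-10. Il6ra (NCBI gene 16194), which binds IL-6, held 1 peak at 5.09-fold (2.88 to 8.44) on 13 fragments, 941 bp before the 3′ end of its span on chromosome 3. Il11ra1 (NCBI gene 16157), the IL-11 receptor chain needed for decidualization in mice, held 1 peak at 4.18-fold (2.50 to 6.64) on 16 fragments, from 41767789 to 41767988 on chromosome 4. The related gene Il11ra2 held none, but how reads that match more than 1 gene were placed is not given in the sources used here. Il31ra (NCBI gene 218624) held 2 peaks on chromosome 13, at 6.91-fold (4.24 to 10.7) and 6.07-fold (2.90 to 11.7), both within 2.45 kb of the 5′ end of a span of 58.8 kb. Il10rb (NCBI gene 16155), a chain shared by IL-10 and IL-22, held 2 peaks on chromosome 16 at 8.63-fold (5.23 to 13.5) and 4.45-fold (2.20 to 8.28). Il12rb1, Il12rb2, Il23r and Il27ra, receptors of the IL-12 family, held no peak. Nor did Il10ra, Il20ra, Il20rb, Il22ra1 or Il22ra2 of the IL-10 family.

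Among the 11 receptors with a peak, the 18 ligand genes paired with them by textbook knowledge held 0 peaks, where 2 of 39 interleukin genes in all (5.13%) held one, so the count is near that of interleukin genes as a whole. These include Il6 for Il6ra, Il11 for Il11ra1, Il31 for Il31ra, Il17c for Il17re, and Il10 and Il22 for Il10rb. The chemokines Cxcl12, Cxcl16 and the Ccl21 copies held peaks, and their receptors Cxcr4, Cxcr6 and Ccr7 are among the 16 chemokine receptors of the symbol rule without one. Outside that rule, Ackr3, an atypical receptor for CXCL12, held a peak, and so did both Cx3cl1 and its receptor Cx3cr1.

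Cxcl12 (NCBI gene 20315), a chemokine of stromal cells, held 6 peaks over 12.8 kb on chromosome 6, more than any other member. From the 5′ to the 3′ end they stood at 4.92, 7.14, 3.07, 2.71, 2.96 and 7.51-fold. The highest, from 117178883 to 117179358, had an interval of 5.50 to 10.03 and rested on 44 fragments. It did not overlap the intervals of the peaks at 3.07 (2.10 to 4.34), 2.71 (1.85 to 3.85) and 2.96 (1.94 to 4.35), which stood on backgrounds of 7.44 to 10.1 fragments. The gene thus held sites of high and low fold enrichment within 1 span, with the error of the background left out. The peak of Ackr3 stood at 13.2-fold (9.54 to 17.8).

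Cxcl16 (NCBI gene 66102), a chemokine that is also anchored in the membrane, held 2 peaks on chromosome 11 at 4.39-fold (2.48 to 7.29) and 5.79-fold (3.64 to 8.79). Cxcl14 (NCBI gene 57266), a chemokine of epithelia, held 1 peak on chromosome 13, from 56295937 to 56296310, at 4.80-fold (2.37 to 8.94) on 8 fragments. Its summit lay 818 bp from the 5′ end. The other 9 CXC chemokines held no peak, among them the neutrophil chemokines Cxcl1, Cxcl2 and Cxcl5 and the interferon-induced Cxcl9 and Cxcl10.

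The CC chemokines with a peak were all copies of Ccl21, which encodes a chemokine that guides cells bearing CCR7. Ccl21a (NCBI gene 18829), Ccl21b (NCBI gene 100042493) and Ccl21d (NCBI gene 100862177) lie on chromosome 4. The peak of Ccl21b, from 42256221 to 42256723, stood at 20.3-fold (15.3 to 26.4) on 53 fragments, the greatest fold enrichment and the most fragments of all 45 peaks. That of Ccl21d, from 41904138 to 41904461, stood at 9.51-fold (6.05 to 14.3) on 21 fragments. Ccl21a held 2 peaks, at 4.48-fold (3.01 to 6.44) and 4.93-fold (3.42 to 6.90), and its background of 5.25 and 5.69 fragments was higher than that of Ccl21b (1.66) and Ccl21d (1.31). Both of its summits also lay in 4930578G10Rik. The interval of Ccl21b lay above those of the other copies. The copies are nearly the same in sequence, and how reads that match several copies were placed is not given in the sources used here, so the values are uncertain as measurements of single genes. Ccl21c lies on a scaffold in the gene table, and the 8 peaks on scaffolds of chromosome 4 were not matched to it. It was thus not assessed, and it is counted among the 130 genes, the 76 ligands and the 25 CC chemokines as a gene without a peak.

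The likeness of the copies can be read from the RefSeq promoter entries of GRCm38.p6. With the entries of Ccl21a and Ccl21d set against each other at an offset of 1 base, 297 of 299 bases were the same. A stretch of 150 aligned upstream bases is shown for both, each on its own strand, minus for Ccl21a and plus for Ccl21d. It ends directly before the listed start of Ccl21a and, through the offset, 1 base short of that of Ccl21d. The base in capitals is the only one of the 150 that differs.
Ccl21a, chr4:42773992-42774141: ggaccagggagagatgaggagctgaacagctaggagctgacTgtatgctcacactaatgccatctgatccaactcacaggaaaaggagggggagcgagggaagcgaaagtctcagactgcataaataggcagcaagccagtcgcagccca
Ccl21d, chr4:41903462-41903611: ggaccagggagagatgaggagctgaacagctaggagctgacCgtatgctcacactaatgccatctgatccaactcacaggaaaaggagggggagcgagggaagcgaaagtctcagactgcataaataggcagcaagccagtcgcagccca

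Of the other 22 CC chemokine genes, Ccl21c was not assessed and the rest held no peak. Among the latter are Ccl2 and Ccl7, which attract monocytes, Ccl5 for T cells, Ccl11 and Ccl24 for eosinophils, and Ccl19, the other ligand of CCR7. Counted by receptor, no gene from Ccr1 to Ccr10 held a peak, and neither did Ccr1l1 or the 5 autosomal CXC receptors.

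Among the interleukins themselves, peaks were found in Il16 and Il17d. Il16 (NCBI gene 16170), whose product binds CD4, held 3 peaks over 103 kb on chromosome 7, at 3.61, 8.04 and 5.06-fold from the 5′ to the 3′ end. The strongest, from 83661008 to 83661316, rested on 19 fragments (4.999 to 12.3), and its interval overlapped those of the others. Il17d (NCBI gene 239114) held 1 peak at 5.32-fold (2.43 to 10.7), 794 bp before the 3′ end on chromosome 14. That peak rested on 6 fragments, the fewest among the 45, and its interval is accordingly wide. No peak lay in Il6, Il10, Il11, Il15, Il1b or Il34.

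Of the 3 genes that are neither ligand nor receptor, Il4i1b held 2 peaks, at 6.21-fold (3.65 to 9.99) and 9.65-fold (6.77 to 13.4). Both summits also lay in Nup62, a nuclear pore gene, and the first in Atf5 as well, and the list gives no strand, so these peaks cannot be assigned to 1 gene. Il18bp and Il4i1 held none. These 2 peaks are the only ones of the 45 with a summit in another protein-coding gene. Of the 109 genes without a peak that lie on a chromosome, 9 had a summit within 5 kb outside the span, and in 9 of 9 it lay in another protein-coding gene.

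The strand was listed for 17 of the 20 genes, which allowed 39 peaks to be placed from the 5′ to the 3′ end. Of these, 15 (38.5%) lay in the last 20% of the span, 6 (15.4%) in the first 20% and 18 between. Over all protein-coding genes with a listed strand, 39.1% of 15871 peaks lay in the last 20% and 16.0% in the first 20%. The placement in these genes was thus close to that of other genes. For receptors 9 of 22 peaks and for ligands 6 of 15 lay in the last 20%. Il6ra, Il4ra, Il11ra1, Ccl21b and Il17d had peaks in the last 20% only, whereas Il31ra and Cxcl14 had them in the first 20% only. These placements depend on the listed span. The summits of Ccl21b and Ccl21d lay 413 and 435 bp before the 3′ end. They fell at 99.5% and 61.5% of listed spans of 83.7 and 1.13 kb. Exons were not told from introns.

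**Figure D4:**
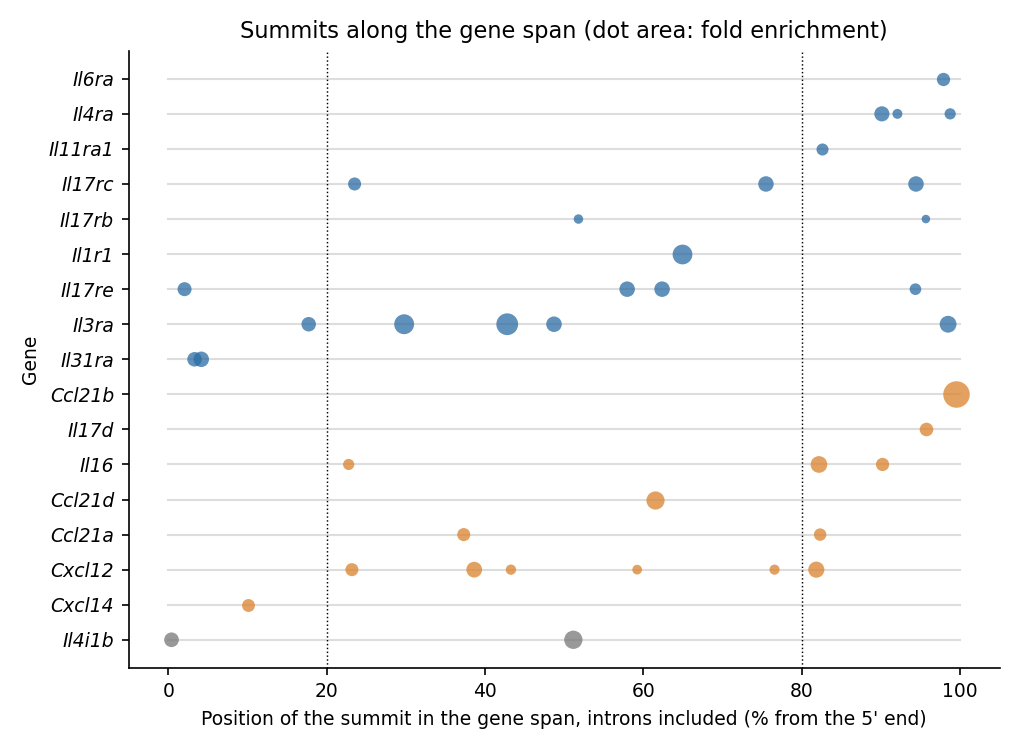
Position of 39 summits in 17 genes as a percentage of the gene span from the 5′ end, introns included; receptors are blue, ligands orange, the other gene grey, and dot area is proportional to fold enrichment. The dotted lines mark 20% and 80%, and 15 summits lie beyond the latter.

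Genes downstream of the interleukin receptors were counted in the same way. From a list of 24 JAK, STAT and SOCS genes with their regulators and the shared IL-6 family chain Il6st, 19 held a peak (79.2%), against 31.7% of all protein-coding genes. The highest was Socs1, a feedback inhibitor of cytokine signalling, at 19.7-fold (13.0 to 28.8). Jak3, the kinase of the IL-2 family receptors, held 11 peaks, and Il6st held 4 with the highest at 4.67-fold (3.26 to 6.50). Jak1, Jak2, Stat4, Socs4 and Socs6 held none. From a list of 23 genes of IL-1, IL-17 and NF-κB signalling, 15 held a peak (65.2%, against the same 31.7%). The highest was Traf3ip2, the adaptor of the IL-17 receptors, at 12.1-fold (8.68 to 16.4), and Myd88, the adaptor of the IL-1 receptors, stood at 5.78-fold (3.75 to 8.55). Transcript abundance and span were not matched between these lists and the receptors and ligands.

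Of 11 further chemokine genes outside the symbol rule, 3 held a peak (27.3%), namely Ackr3, Cx3cl1 at 11.2-fold (7.13 to 16.9) and its receptor Cx3cr1 at 6.03-fold (3.48 to 9.84). Of 31 other cytokine and cytokine receptor genes, 12 held a peak (38.7%), with the highest in Clcf1, a ligand of the IL-6 family, at 15.6-fold (10.8 to 21.9). Both shares lie near the 31.7% of all protein-coding genes. Csf2rb, the chain that IL-3 and IL-5 receptors share, stood at 5.24-fold (3.22 to 8.12). Of 6 X-linked genes of the symbol pattern, Il2rg, the chain shared by the IL-2 family receptors, held a peak at 5.11-fold (3.28 to 7.62) and Il1rapl1 held 1 at 6.83-fold (3.38 to 12.7).

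Markers of the labelled tissue held peaks in 10 of 11 epithelial, 10 of 10 stromal, 8 of 8 smooth muscle and 7 of 8 endothelial genes. Leukocyte markers held peaks in 8 of 22 (36.4%), near the 31.7% of all protein-coding genes, with Cd74, H2-Aa, H2-Ab1, Cd68, Lyz2, Csf1r, Cd3e and Prf1 among these and Ptprc, Adgre1, Itgam, Itgax, Cd4, Cd8a and Ncr1 at 0. The genes without a peak were not sorted by the cell types that they are known from. The part that the number of leukocytes in the tissue plays in the counts was not tested, and fewer cells of a type cannot be told apart from less RNA per cell.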

How the data were processed

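ac4C immunoprecipitation and input libraries of mouse uterus were deposited as 1 peak list. HISAT2 2.2.1, MACS3 3.0.0a7 and build mm10 are named in the submitters' processing notes, without parameters. Fold enrichment (a ratio), −log10 p, −log10 q and a display score were deposited by the authors. The largest q-value was 0.0499. Values were read as a narrowPeak layout, as the list has no header.

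Positions were set against a RefSeq table of GRCm38.p6, the build that corresponds to mm10. The fragments at a summit were the whole number for which fold enrichment (with a pseudocount of 1) and p-value agree, found for each of the 45 peaks, and the step was tested on simulated data. Read depth per library is unknown, so the fragments stand for depth. Intervals are exact Poisson, Wilson or Newcombe intervals at 95%. Strand was taken from 98 of 130 genes with a promoter entry.

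Members and gene lists were chosen with earlier results of these data known. Every member with a peak was named. Alternatives were peak filters, ways of assigning a peak, membership and gene span. Python 3.11.15, pandas 2.3.3, numpy 2.4.6 and scipy 1.17.1 were used.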

Additional observations from a re-analysis of the deposited data

How the results depend on the processing

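With a −log10 q of at least 10, 13 genes and 15 peaks were counted in place of 20 and 45, since the filter leaves fewer peaks, and Cxcl14, Cxcl16, Il11ra1, Il17d, Il17rb, Il17re and Il6ra were lost. Limited to peaks no weaker than the median peak, 24 peaks and 14 genes were counted. Within classes of gene span the receptor minus ligand share was -5.88 percentage points under 5 kb and -1.39 at 20 kb or more. Over all spans it was 11.0. Copies of Ccl21 are among the ligands with a peak in both of those classes, and the cause was not tested. Over the peak filters, assignments and memberships tried the difference ran from 7.15 to 13.3. The shares of ligands and of receptors and the median fold enrichment stayed within their intervals under every alternative run for them. For single genes, 139 of 144 values lay within the counting interval of the reported value, which says little where an alternative keeps the same peak. The median over a gene's peaks took Cxcl12 to 3.99, Il3ra to 8.15 and Il4ra to 3.64, and peaks of at most 631 bp took Il4i1b to 6.21 and Il4ra to 3.64. The count with Ccl21 copies as 1 gene was chosen after seeing the data. No paired analysis was possible because each group is 1 library. The 45 peaks rested on 6 to 53 fragments, and read depth is unknown.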
